A study of Mus musculus with 9 samples.

Results

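The 12-week comparison set 2 pools of liver RNA from mice fed a high protein (HP) diet, LF-HP and HF-HP, against 2 pools from mice fed a normal protein (NP) diet, LF-NP and HF-NP, so that each HP pool had an NP pool of the same fat content as its match. These were 4 of the 9 pools measured, chosen by diet and time alone. The study asked what high protein feeding does to body fat, liver fat and hepatic gene expression in the short and the long term. All mice were male C57Bl/6J mice. They first received the LF-NP diet for a 2-week run-in and were then fed LF-HP (10% of energy from fat, 50% from protein, 40% left for carbohydrate), HF-HP (35, 50 and 15%), LF-NP (10, 15 and 75%) or HF-NP (35, 15 and 50%). In the HP diets protein took the place of carbohydrate, so the effects of more protein and of less carbohydrate cannot be told apart. Livers were taken 2 hours after a calibrated meal. The labels give the 12-week mice an age of 22 weeks, whereas the times in the protocol add up to 24. The 1-week pools, used beside them, are labelled 13 weeks of age. The week 0 reference pool, taken on LF-NP after the run-in, is labelled 12 weeks. Values set against this reference therefore also differ in age. Each pool joined the RNA of 5 mice and was read on 1 Affymetrix Mouse Gene 1.0 ST array, so that variation between single mice was not measured. No diet had a replicate pool at either time. The p-values and SE therefore reflect how far the pools of both times depart from fitted diet effects that add up. They do not measure a spread between replicate pools.

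Liver is the main site where surplus amino acids are broken down. Their nitrogen is passed on by aminotransferases and leaves through the urea cycle, while their carbon skeletons enter the tricarboxylic acid (TCA) cycle and are oxidised or turned into glucose. Sugar, in contrast, feeds glycolysis and the synthesis of fatty acids in liver, under transcription factors that answer to glucose and insulin.

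Values are log2 signals from robust multiarray analysis (RMA), and differences are HP minus NP on that scale. Of the 4 arrays, those of LF-HP and HF-NP stood apart: the upper quartile of their gene values was 7.60 and 7.62, whereas it lay between 7.70 and 7.76 in the other 7 arrays of the series. These 2 pools lie on opposite sides of the protein comparison and in different fat pairs. Over all genes, 49.8% had differences of opposite sign in the LF and the HF pair at 12 weeks, compared to 37.5% at 1 week, while 18.2% were positive and 19.9% negative in both pairs at 12 weeks. The correlation between the 4 arrays was at least 0.988. Hepatocyte transcripts were high in every pool, with albumin (Alb) at 14.05 in LF-HP, 13.80 in HF-HP, 13.89 in LF-NP and 14.04 in HF-NP, close to the array maximum of 14.46.

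No gene passed the test at 12 weeks. With limma, 0 of 19938 genes (0%) had an adjusted p under 0.05, and the smallest adjusted p was 0.103, for Gask1a. At an unadjusted p under 0.05, 697 genes (3.5%) were higher and 762 (3.82%) were lower in the HP pools. These counts were 309 and 338 in a fit of the 4 pools of 12 weeks alone, 455 and 486 with array weights, and 1463 and 1502 without the LF-HP pool of 12 weeks. The differences below are therefore given as measured values in 2 matched pairs and not as established changes. When genes below the median level were left out, 27 genes passed (12 higher and 15 lower in HP), and with each array centred on its median 11 passed (4 higher and 7 lower). Both HP pools lay above both NP pools for 2693 genes (13.5%) and below them for 2890 (14.5%). A difference of more than 1.5-fold in both pairs was measured for 49 genes in the upward direction (0.246%) and for 49 in the downward direction (0.246%). All genes that passed at these 2 settings were among those 98. Both selections rest on the differences of the same 12-week pools, so this overlap is no separate support. Without the LF-HP and HF-NP pools, all of the 98 genes kept their sign, and 45 of the higher and 42 of the lower ones stayed over 1.5-fold. The HF-HP and LF-NP pools that remain were also used to pick these genes, so this is no separate check of them.

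The leading genes on the higher side included enzymes and transporters that handle tryptophan carbon, nicotinamide, aldehydes and monocarboxylates. The largest difference among them belonged to Rdh18-ps, a pseudogene of the retinol dehydrogenase family, whose probes were not checked for matches to its relatives. It measured 7.60 in LF-HP and 7.80 in HF-HP, against 5.25 in LF-NP and 4.59 in HF-NP, a 6.88-fold difference on average (2.78 ± 0.42 SE on the log2 scale, adjusted p = 0.187). Acmsd, the decarboxylase that steers tryptophan breakdown away from NAD and towards full oxidation, measured 9.60 and 10.37 in LF-HP and HF-HP, against 8.03 and 7.68 in LF-NP and HF-NP (4.38-fold, 2.13 ± 0.24, adjusted p = 0.155). The NP pools lay below the week 0 reference of 8.82 and the HP pools above it. Nnmt, which methylates nicotinamide and thereby removes it from the NAD pool, measured 12.11 and 12.48 in the HP pools, against 10.86 and 11.15 in the NP pools. Its matched differences were nearly equal, 1.25 in the LF pair and 1.32 in the HF pair (mean 1.28 ± 0.12, adjusted p = 0.112) and the reference value was 11.17.

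A group of these genes differed more in the HF than in the LF pair, with 1 pair at each fat level. Each pair holds 1 of the arrays that stood apart, and their part in this was not tested. Aldh1b1, a mitochondrial aldehyde dehydrogenase, measured 8.45 in LF-HP and 9.55 in HF-HP, against 6.92 in LF-NP and 7.27 in HF-NP. Slc16a5, a member of the monocarboxylate transporter family, measured 8.05 and 9.13 in LF-HP and HF-HP, against 6.67 in both NP pools, which is 2.61-fold in the LF and 5.51-fold in the HF pair. Etnppl, the lyase that degrades phosphoethanolamine, measured 11.37 and 11.73 in the HP pools, against 10.32 and 9.97 in the NP pools. In each of the 3 genes the HF-HP pool was the highest and the groups did not overlap. The remaining leading genes were Gpx6, a glutathione peroxidase (difference 2.46), Hapln1, a link protein of the hyaluronan matrix (1.85), Lrtm1 (1.61), Mmd2 (1.81), Ciart, a repressor of the circadian clock (1.38), and Sftpa1, surfactant protein A (1.45). Gpx6 and Hapln1 were almost identical in the HP pools, at 9.25 and 9.21 and at 6.22 and 6.26.

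The leading genes on the lower side included regulators of cell signalling and secreted proteins. Rgs16, which shortens signalling through G proteins, measured 7.33 in LF-HP and 7.15 in HF-HP, against 9.59 in LF-NP and 9.62 in HF-NP, so that the HP level was 0.194 times the NP level (−2.37 ± 0.29, adjusted p = 0.155). The pools of each protein level lay close together and more than 2 log2 units from the others. Slc17a8, a vesicular glutamate transporter, measured 6.51 and 6.12 in the HP pools, against 8.39 and 8.67 in the NP pools. Serpina12, the secreted serpin vaspin, measured 6.43 and 5.84 in the HP pools, against 8.03 and 7.94 in the NP pools. In both genes HF-HP was the lowest of the 4 pools.

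Gask1a, a kinase-like protein of the Golgi, had the smallest p of all genes, with 5.68 in LF-HP and 5.25 in HF-HP, against 7.38 in LF-NP and 6.82 in HF-NP (−1.64 ± 0.12). Osgin1, a growth inhibitor induced by oxidative stress, measured 8.32 and 8.50 in the HP pools, against 10.06 and 9.89 in the NP pools (−1.57 ± 0.14, adjusted p = 0.112). Cyp2d40, a cytochrome P450, measured 7.71 in both HP pools, against 9.33 and 8.99 in LF-NP and HF-NP (−1.45 ± 0.14, adjusted p = 0.112). For these 3 genes the reference pool lay between the HP and the NP pools. The matched differences of Inhba, the subunit of activin A, were −1.16 in the LF and −1.77 in the HF pair, and those of Lgr5, the R-spondin receptor of hepatocytes around the central vein, −1.09 and −1.14. Ptges, a prostaglandin E synthase, Slc25a47, a mitochondrial carrier of hepatocytes, and Tmem131l differed by −1.04, −1.08 and −0.96 on average. Obp2a, a lipocalin that binds odorants in the nose, differed by −1.23 in the LF and −1.27 in the HF pair, and all 4 pools lay above the reference of 4.85.

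**Figure D1:**
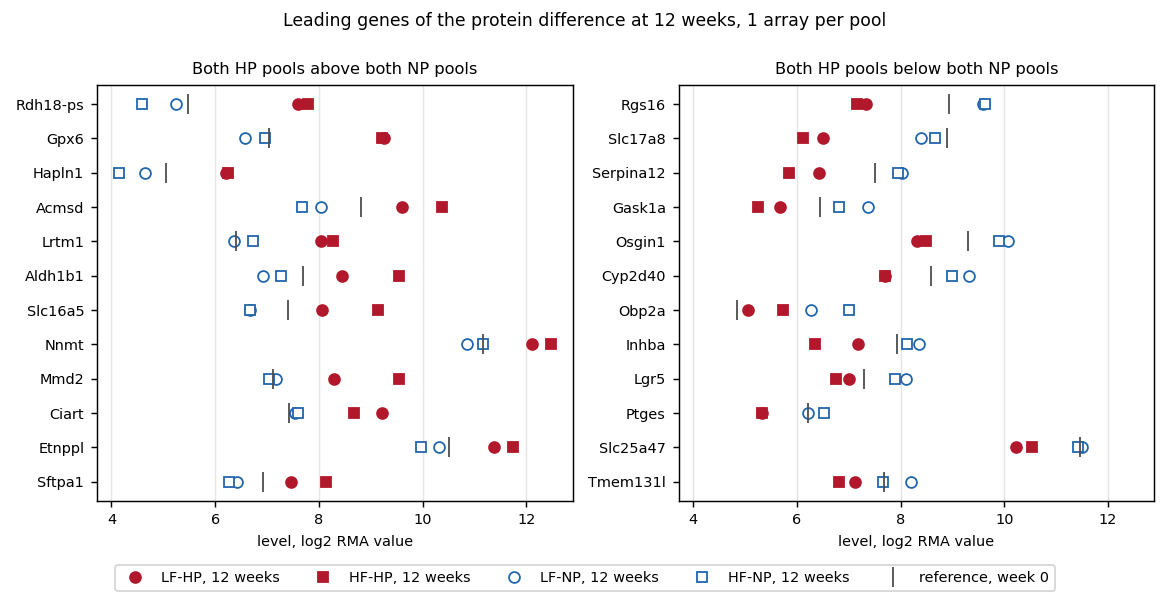
Log2 RMA level (horizontal axis) of the 12 genes with the largest smaller-of-the-pair difference in each direction (vertical axis), with 1 symbol per 12-week pool (filled, HP; open, NP; circle, LF; square, HF) and a tick for the week 0 reference. HP symbols lie to the right of NP symbols in the left panel and to the left of them in the right panel, with the largest gaps for Rdh18-ps (2.78) and Rgs16 (−2.37).

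Genes of amino acid breakdown were mostly higher in the HP pools, by small amounts. The size of the list medians differed between the pairs for some lists. Of the 14 aminotransferase and glutamate genes with a value, 10 had both HP pools above both NP pools and 0 below. Over all genes these shares were 13.5% above and 14.5% below, and they apply to every later count of this kind. They cover genes of every level (median 5.84 to 5.87 in the 4 pools) and were not taken for genes of matched level. With limma on genes above the median level only, 537 of 9969 were higher and 567 lower at an unadjusted p under 0.05. Over all levels these counts were 697 and 762 of 19938. The median difference of the aminotransferase and glutamate list was 0.28, compared to −0.01 over all genes. Got1, the cytosolic aspartate aminotransferase, measured 12.31 in LF-HP and 12.73 in HF-HP, against 11.70 in LF-NP and 11.08 in HF-NP (1.12 ± 0.22, adjusted p = 0.286). Agxt, which transfers the amino group of alanine to glyoxylate, measured 9.59 and 9.90 in the HP pools, against 8.98 and 9.10 in the NP pools. The alanine aminotransferases Gpt and Gpt2 differed by 0.32 and 0.17. The median of this list was 0.01 above the reference in the HP pools and 0.27 below it in the NP pools.

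Pathways for single amino acids mostly leaned the same way. Among 20 genes of branched-chain amino acid breakdown, 13 were above and 0 below without overlap (median 0.15), with Ivd, isovaleryl-CoA dehydrogenase, at 0.47 ± 0.10 and Bckdhb, a subunit of the branched-chain keto acid dehydrogenase, at 0.37 ± 0.10. Of 16 genes for methionine, cysteine and taurine, 7 were above and 0 below (median 0.12). Cth, which makes cysteine from cystathionine, measured 11.61 and 11.97 in the HP pools, against 11.14 and 10.99 in the NP pools. Ethe1, the sulfide-oxidising dioxygenase of mitochondria, measured 8.46 and 8.60 in the HP pools, against 7.60 and 7.74 in the NP pools, with a difference of 0.86 in the LF and 0.87 in the HF pair. Phenylalanine and tyrosine genes were above in 4 and below in 0 of 8 (median 0.15; Tat, tyrosine aminotransferase, 0.40 ± 0.14), and histidine genes in 3 and 0 of 5 (Hal, histidine ammonia-lyase, 0.41 ± 0.12). The histidine median was 0.07 in the LF and 0.30 in the HF pair. The lysine and proline list was more mixed, with 7 of 13 above and 2 below. Its first enzyme Aass, which joins lysine to ketoglutarate, differed by 0.60 ± 0.12, and Hykk, the hydroxylysine kinase, by −0.57 ± 0.11.

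The tryptophan and NAD list had 6 of 16 genes above and 3 below, beside 13.5% and 14.5% of all genes. Its median was 0.0045 in the LF and 0.24 in the HF pair. Besides Acmsd and Nnmt, Kyat1, a kynurenine aminotransferase, differed by 0.37 ± 0.12. The entry enzyme Tdo2 measured 12.49 and 12.55 in the HP pools, against 12.38 and 12.50 in the NP pools. The aldehyde oxidases Aox3 and Aox1, which turn N-methylnicotinamide into pyridones, differed by −0.55 ± 0.09 and −0.49 ± 0.14. Of 19 serine, glycine and threonine genes, 10 were above and 3 below (median 0.15). Gcat, of threonine breakdown, differed by 0.61 ± 0.10.

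In the urea cycle 5 of 9 genes were above and 0 below (median 0.15), beside 13.5% and 14.5% of all genes. Cps1, which fixes ammonia in the first step, measured 13.46 and 13.43 in the HP pools, against 13.23 and 13.15 in the NP pools (0.25 ± 0.09). The ornithine carrier Slc25a15 differed by 0.55 ± 0.13, and Otc, which joins ornithine to carbamoyl phosphate, by 0.32 in the LF and −0.02 in the HF pair. Amino acid transporters were split, with 12 of 20 above and 3 below (median 0.18). Their median was 0.05 in the LF and 0.27 in the HF pair. Without the LF-HP and HF-NP pools their median was 0.10 and 11 of 20 were positive. Slc7a2, a carrier of arginine and other cationic amino acids, measured 11.71 and 12.30 in the HP pools, against 11.13 and 10.78 in the NP pools. Slc43a1, a carrier of large neutral amino acids, measured 8.23 and 8.37 in the HP pools, against 7.36 and 7.13 in the NP pools, which is 1.83-fold in the LF and 2.35-fold in the HF pair. Slc38a2, the carrier induced by amino acid shortage, had differences of −0.57 and 0.53. Targets of ATF4, the factor that answers to amino acid shortage, had a median of 0.05, with Asns, asparagine synthetase, at 0.13 in the LF pair and 2.01 in the HF pair.

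**Figure D2:**
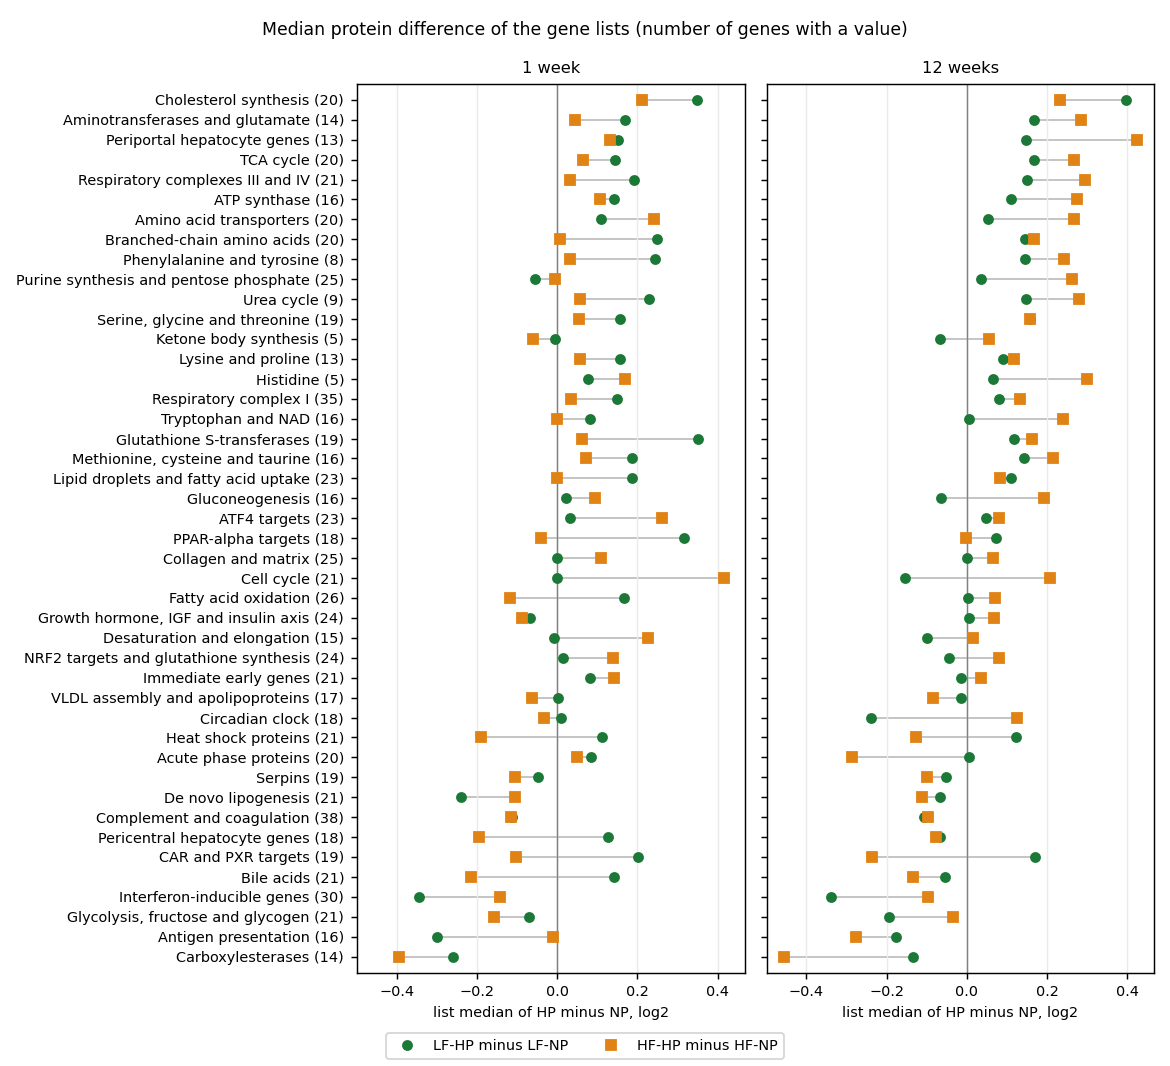
Median HP minus NP difference (horizontal axis, log2) of 44 gene lists (vertical axis, with the number of genes measured) at 1 week (left) and 12 weeks (right), for the LF pair (circles) and the HF pair (squares). At 12 weeks 22 medians were above 0 in both pairs and 10 were below 0 in both, with cholesterol synthesis highest at 0.34 and carboxylesterases lowest at −0.31 on average.

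Mitochondrial genes were mostly higher in the HP pools. In the TCA cycle 17 of 20 genes had both HP pools above both NP pools and 1 below, beside 13.5% and 14.5% of all genes. The medians were 0.17 in the LF and 0.27 in the HF pair. Fh1, fumarate hydratase, measured 11.04 in LF-HP and 11.50 in HF-HP, against 10.61 in LF-NP and 10.54 in HF-NP (0.69 ± 0.15, adjusted p = 0.338). Idh2, the NADP-dependent isocitrate dehydrogenase, measured 10.26 and 10.59 in the HP pools, against 9.83 and 9.67 in the NP pools. For both genes HF-HP was highest and HF-NP lowest. Idh3a, a catalytic subunit of the NAD-dependent enzyme, differed by 0.60 ± 0.14 and Sdhb, the iron-sulfur subunit of succinate dehydrogenase, by 0.40 ± 0.09. Citrate synthase (Cs), the entry of the cycle, did not follow them. It measured 10.15 and 10.08 in the HP pools, against 10.21 and 10.10 in the NP pools. The groups overlapped, so Cs is not the 1 gene counted below. The list lay 0.12 above the reference in the HP pools and 0.11 below it in the NP pools. The reference mice were also younger, and whether these distances from the reference came from diet was not tested. Without the LF-HP and HF-NP pools the median of the list was 0.23, with 19 of 20 genes positive.

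The respiratory chain resembled the TCA cycle. Of 35 subunits of complex I, 35 had a positive mean difference, 25 were above and 0 below without overlap, and the median was 0.12. In complexes III and IV 17 of 21 were above and 0 below (median 0.21), and in ATP synthase 12 of 16 and 0 (median 0.19). Members differed by up to 0.47 in complex I (Ndufa5) and 0.39 in ATP synthase (Atp5pb). Cox7a1, the muscle-type isoform of a cytochrome c oxidase subunit, differed by 0.24 in the LF and 1.86 in the HF pair. Ppargc1a, the coactivator that drives mitochondrial and gluconeogenic genes, measured 8.68 in LF-HP and 9.79 in HF-HP, against 8.18 in LF-NP and 7.64 in HF-NP, a difference of 0.50 in the LF and 2.15 in the HF pair (adjusted p = 0.393). Fatty acid oxidation, which also takes place in mitochondria, had 9 of 26 genes above, 6 below and a median of 0.02. Cpt1a, the gate for entry of fatty acids, measured 11.76 and 11.79 in the HP pools, against 11.82 and 11.83 in the NP pools. In bulk liver RNA, a larger number of cells of a type and more RNA per cell cannot be told apart in any of these results.

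Cholesterol synthesis had the highest median of the 44 lists, 0.34. Of its 20 genes, 16 were above and 0 below, beside 13.5% and 14.5% of all genes. With limma, 9 were higher at an unadjusted p under 0.05, beside 3.5% of all genes. Liver makes sterols from acetyl-CoA through mevalonate and squalene, and SREBP-2 switches the genes of the pathway on when cell sterol is low, together with NF-Y, which binds CCAAT boxes. Sqle, squalene epoxidase, measured 8.40 in LF-HP and 8.95 in HF-HP, against 6.89 in LF-NP and 7.99 in HF-NP (2.34-fold, 1.23 ± 0.17, adjusted p = 0.155). LF-NP was the lowest pool, and the reference of 7.96 was close to HF-NP. Msmo1, the methylsterol oxidase, showed the same order, with 9.49 and 9.64 in the HP pools, against 8.48 and 9.36 in the NP pools. Insig1, which holds the SREBP escort protein back when sterols are ample, measured 11.47 and 11.51 in the HP pools, against 10.96 in both NP pools. Lss, which closes the sterol rings, measured 8.40 and 8.73 in the HP pools, against 8.01 and 8.08 in the NP pools. Hmgcs1, which starts the mevalonate pathway, differed by 0.36 in the LF and −0.19 in the HF pair.

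Without LF-HP and HF-NP, the 2 arrays that stood apart, the median of the sterol list was −0.03 and 9 of 20 genes were positive. That setting changes 2 things together, since the fat effect then comes from the 1-week pools alone, and their parts were not tested. At 1 week, in pools that do not include these arrays, the median of the list was 0.35 in the LF and 0.21 in the HF pair, and Sqle measured 9.11 in HF-HP and 8.68 in HF-NP, and 8.10 in LF-HP and 7.42 in LF-NP.

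The promoters of these genes are shown because most members differed in the same direction with all pools, which was not so without LF-HP and HF-NP. RefSeq (GRCm38.p6) held a window from 250 bases before to 50 bases after the start of transcription for 16 of the 20 genes. The letters CCAAT, read on both strands, occurred in a window of all 16, compared to 41.1% of all genes with a window. The sterol response element written as TCACNCCAC occurred in 1 of them, Hmgcs1, and in 1.44% of all genes. A match is a description of these letters and does not show binding. The windows are reference sequence, the same for every pool, and a part of these sites in the differences was not tested. The windows of the 3 genes with the largest differences among those with a window follow, with CCAAT or its reverse complement ATTGG in capitals.
Msmo1, chr8:64733529-64733828, minus strand: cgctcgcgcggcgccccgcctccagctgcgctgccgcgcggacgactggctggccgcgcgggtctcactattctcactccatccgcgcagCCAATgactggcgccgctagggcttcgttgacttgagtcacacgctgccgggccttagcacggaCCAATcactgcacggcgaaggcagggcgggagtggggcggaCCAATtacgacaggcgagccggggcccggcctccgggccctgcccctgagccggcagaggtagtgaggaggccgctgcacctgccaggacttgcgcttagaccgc
Insig1, chr5:28071162-28071461, plus strand: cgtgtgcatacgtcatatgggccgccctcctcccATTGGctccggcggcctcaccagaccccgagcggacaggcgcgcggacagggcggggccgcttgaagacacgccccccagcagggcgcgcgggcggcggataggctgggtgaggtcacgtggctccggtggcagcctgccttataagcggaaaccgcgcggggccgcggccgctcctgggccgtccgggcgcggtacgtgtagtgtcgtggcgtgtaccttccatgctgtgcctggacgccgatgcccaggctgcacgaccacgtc
Lss, chr10:76531355-76531654, plus strand: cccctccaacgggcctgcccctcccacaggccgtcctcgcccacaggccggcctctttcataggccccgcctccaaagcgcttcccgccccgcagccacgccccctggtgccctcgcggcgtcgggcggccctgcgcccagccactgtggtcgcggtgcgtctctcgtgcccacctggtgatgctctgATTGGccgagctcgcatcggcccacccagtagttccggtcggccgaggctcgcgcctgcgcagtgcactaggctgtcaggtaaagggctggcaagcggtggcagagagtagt
Msmo1 holds the box 3 times, whereas Insig1 and Lss hold it 1 time each and in reverse. The 12-week differences of these genes were 0.65, 0.53 and 0.52.

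Genes of sugar use were more often lower than higher in the HP pools. The median of 21 genes of glycolysis, fructose and glycogen metabolism was −0.19, with −0.19 in the LF and −0.03 in the HF pair. Of these genes, 10 were below and 4 above without overlap, beside 14.5% and 13.5% of all genes. Those below act on the entry of sugar, on fructose, glycogen and glycerol phosphate, and on the last step of glycolysis. Pklr, liver pyruvate kinase, measured 11.25 in LF-HP and 11.13 in HF-HP, against 11.91 in LF-NP and 11.73 in HF-NP (−0.63 ± 0.14, adjusted p = 0.353). Khk, fructokinase, measured 10.77 and 10.45 in the HP pools, against 11.24 and 11.03 in the NP pools (−0.53 ± 0.08, adjusted p = 0.204). Gpd2, which passes electrons from glycerol phosphate to the respiratory chain, measured 8.87 and 8.71 in the HP pools, against 9.53 and 9.34 in the NP pools, 0.632 times the NP level in the LF and 0.646 times in the HF pair. Tkfc, which phosphorylates glyceraldehyde from fructose, Slc2a2, the glucose carrier GLUT2, and Pygl, glycogen phosphorylase, differed by −0.56, −0.38 and −0.45. Pgk1, of the middle part of glycolysis, differed by 0.33 ± 0.09. Mlxipl (ChREBP), the transcription factor that answers to glucose and switches on several of these genes, measured 10.33 and 10.11 in the HP pools, against 11.01 and 10.71 in the NP pools (−0.64 ± 0.09, adjusted p = 0.187).

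**Figure D3:**
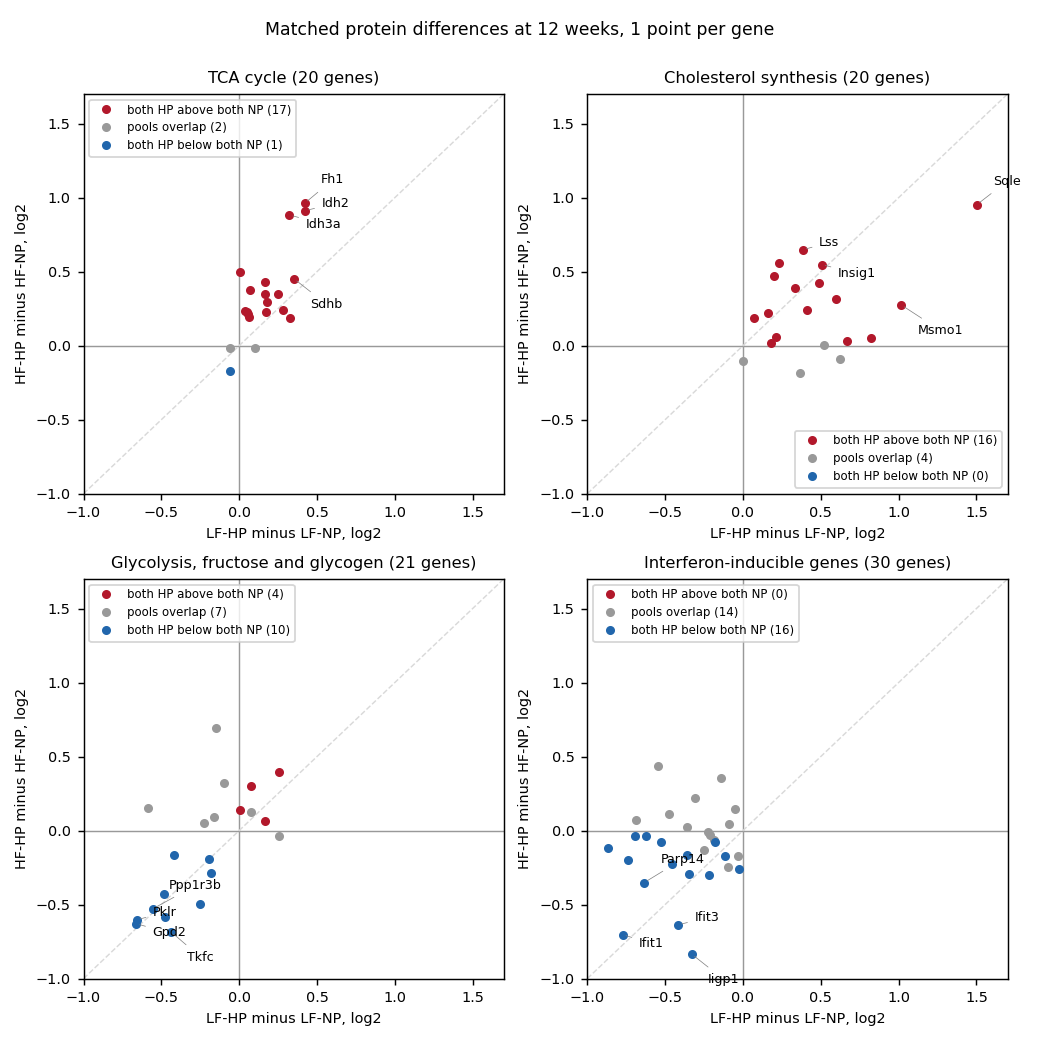
Matched difference in the LF pair (horizontal axis, log2) against that in the HF pair (vertical axis, log2) for each gene of 4 lists, coloured by whether the HP pools lie above (red), overlap with (grey) or lie below (blue) the NP pools. TCA cycle genes lie mostly in the upper right (17 of 20 red), sterol genes reach further along the LF axis (16 of 20 red), and 10 of 21 sugar genes and 16 of 30 interferon genes are blue.

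Lipogenic genes were divided, with 8 of 21 below and 5 above (median −0.08), beside 14.5% and 13.5% of all genes. Acaca, the acetyl-CoA carboxylase of fatty acid synthesis, differed by −0.46 ± 0.10, Elovl6, an elongase, by −0.43 ± 0.10, and Me1, which supplies NADPH, by −0.56 ± 0.09. Pnpla3, a lipase of lipid droplets, had −0.35 in the LF and −1.43 in the HF pair. Fasn, fatty acid synthase, measured 12.36 in LF-HP and 11.46 in HF-HP, against 12.19 in LF-NP and 12.06 in HF-NP, so that the pairs pointed in opposite directions. Scd1, the stearoyl-CoA desaturase, measured between 13.52 and 13.68 in all 4 pools. Acacb, the mitochondrial carboxylase isoform, and Acss2, which activates acetate, were on the other side, at 0.26 ± 0.08 and 0.46 ± 0.14. Gluconeogenesis had a median of 0.05 with Pck1, phosphoenolpyruvate carboxykinase, at 0.01 in the LF and 0.79 in the HF pair.

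Genes of fatty acid uptake and lipid droplets had 7 of 23 above and 5 below, beside 13.5% and 14.5% of all genes. Cd36, a fatty acid carrier of the cell surface, measured 9.51 in LF-HP and 9.75 in HF-HP, against 8.26 in LF-NP and 9.07 in HF-NP (0.97 ± 0.25, adjusted p = 0.406). LF-NP was the lowest pool, as for Sqle. Acsl4, which activates long-chain fatty acids, measured 10.18 and 10.40 in the HP pools, against 9.48 and 9.23 in the NP pools, and Lpl, lipoprotein lipase, measured 6.89 and 7.54 in the HP pools, against 6.48 and 6.57 in the NP pools. Plin2, the main coat protein of lipid droplets in liver, differed by −0.19 and −0.17. Apolipoproteins and VLDL assembly had a median of −0.03, with 1 of 17 above and 5 below. Apob, the structural protein of VLDL, measured 13.05 and 13.03 in the HP pools, against 13.06 and 13.11 in the NP pools, and Mttp, which loads lipid onto it, differed by −0.26 ± 0.09.

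Bile acid genes had a median of −0.15, with 10 of 21 below and 3 above, beside 14.5% and 13.5% of all genes. Nr0b2 (SHP), the repressor that bile acids induce through FXR, measured 7.24 in LF-HP and 7.47 in HF-HP, against 8.73 in LF-NP and 8.27 in HF-NP (0.451 times the NP level, −1.15 ± 0.21, adjusted p = 0.263). Cyp7a1, the rate-limiting enzyme of bile acid synthesis and a target of that repressor, measured 12.10 and 11.84 in the HP pools, against 11.73 and 11.89 in the NP pools, and the groups overlapped.

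Among detoxification genes, carboxylesterases had the lowest median of the 44 lists, −0.31. Of these, 9 of 14 were below and 1 above, beside 14.5% and 13.5% of all genes. Ces2e measured 9.90 in LF-HP and 9.62 in HF-HP, against 10.19 in LF-NP and 10.45 in HF-NP (−0.55 ± 0.15, adjusted p = 0.42). Ces1b, the exception, measured 9.26 and 9.57 in the HP pools, against 8.61 and 8.94 in the NP pools. Carboxylesterases arose by gene duplication, and signal from close relatives cannot be told apart here. Glutathione S-transferases had 8 of 19 above and 2 below, with Gstm2 at 0.60 and 0.63 and Gstt3 at 0.64 and 0.71 in the LF and HF pairs. NRF2 targets were split (6 of 24 above, 8 below): Gclc, which makes the first peptide bond of glutathione, measured 10.85 and 11.05 in the HP pools, against 11.53 and 11.47 in the NP pools, and Nfe2l2, which encodes NRF2 itself, measured 9.52 and 9.63 in the HP pools, against 10.05 and 10.16 in the NP pools. The list of CAR and PXR targets was split, with 4 of 19 genes above and 5 below. Its median was 0.17 in the LF and −0.24 in the HF pair. Cyp3a11, a target of PXR, measured 11.30 in LF-HP and 10.00 in HF-HP, against 11.76 in LF-NP and 12.02 in HF-NP. In the HF pair this gene had 0.247 times the NP level.

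Interferon-inducible genes were lower in the HP pools in 16 of 30 cases without overlap and above in 0, beside 14.5% and 13.5% of all genes. Their median was −0.34 in the LF and −0.10 in the HF pair. Ifit1, an antiviral protein that binds foreign RNA, measured 6.66 in LF-HP and 6.73 in HF-HP, against 7.43 in both NP pools and 7.50 in the reference (0.6 times the NP level, −0.74 ± 0.12, adjusted p = 0.206). Iigp1, an immunity-related GTPase, measured 9.11 and 8.68 in the HP pools, against 9.44 and 9.51 in the NP pools. Parp14, Ifit3 and Irf9, a component of the interferon-activated factor, differed by −0.49, −0.53 and −0.47. In the HP pools the list lay 0.27 below the reference, and in the NP pools 0.07 below it. Without the LF-HP and HF-NP pools its median was −0.41 and 1 of 30 genes was positive. Antigen presentation had 6 of 16 below and 1 above (median −0.22), with Psmb8, a subunit of the immunoproteasome, at −0.39 ± 0.10.

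Markers of other cell types are given as counts without overlap, beside 13.5% of all genes above and 14.5% below. Of 12 Kupffer cell and macrophage markers, 4 were below and 1 above, and the log2 of their summed signal was 11.44 in LF-HP and 11.94 in HF-HP, against 11.98 in LF-NP and 11.97 in HF-NP. LF-HP thus stood alone among the 12-week pools, whereas the HF pair was nearly equal, with a median marker difference of 0.05. The week 0 reference pool had 11.39, close to LF-HP. Clec4f, the defining Kupffer marker, measured 8.77 and 9.05 in the HP pools, against 9.30 and 9.22 in the NP pools. Of 10 T and NK cell markers 4 were below and 1 above, with a log2 summed signal of 8.31 and 8.37 in the HP pools, against 8.62 and 8.58 in the NP pools, and Ptprc (CD45), carried by all leukocytes, differed by −0.44 ± 0.12. Of 7 neutrophil markers, 3 were below and 0 above, but their median level was 3.88 and 3.98 in LF-HP and HF-HP, against 4.15 in both NP pools, which is under the lower quartile of every array (4.31 to 4.43 at 12 weeks). Whether these markers have a part in the interferon result was not tested. The other lists held few genes, with 0 above and 2 below of 9 for stellate cells, 1 and 0 of 9 for endothelial cells, 0 and 1 of 5 for cholangiocytes, 1 and 1 of 6 for adipocytes, 0 and 2 of 4 for pancreas, 0 and 0 of 2 for erythroid cells and 0 and 2 of 7 for B cells. Adipoq, which defines adipocytes, measured at most 3.40, at the low end of the arrays.

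**Figure D4:**
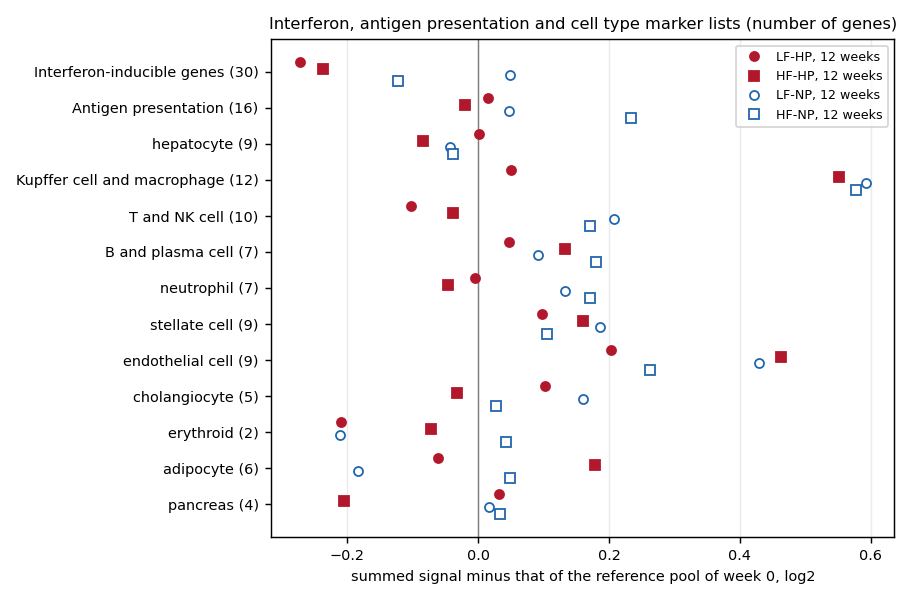
Log2 summed signal of the interferon, antigen presentation and cell type marker lists (vertical axis, with the number of genes measured) in the 4 pools of 12 weeks, minus that of the week 0 reference pool (horizontal axis). Both HP pools lie left of both NP pools for interferon-inducible genes, antigen presentation, T and NK cell and neutrophil markers, and also for macrophage markers, where HF-HP (11.94) is close to the NP pools (11.98 and 11.97). The neutrophil markers had median levels of 3.88 to 4.15, at the low end of the arrays.

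Of genes that mark the position of a hepatocyte in the lobule, periportal ones were above in 8 and below in 1 of 13 (median 0.25, and 0.16 with 8 of 13 positive without the LF-HP and HF-NP pools) and pericentral ones above in 4 and below in 6 of 18 (median −0.10). The periportal list shares Hal, Cps1 and other genes with the amino acid lists. Among pericentral genes Lgr5 had the lowest difference, −1.12, and the next lowest was −0.33. Pericentral genes that also belong to amino acid metabolism, Oat and the glutamate carrier Slc1a2, both differed by 0.48. The core clock genes Arntl and Per1 had opposite signs in the 2 pairs, while Noct (nocturnin), a clock-controlled phosphatase, measured 9.50 and 10.04 in the HP pools, against 8.49 and 8.36 in the NP pools, and Bhlhe40, a repressor of the clock, differed by −0.50 ± 0.12.

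Most of the 98 genes had differences of the same sign at 1 week. Of the 49 genes over 1.5-fold higher in both pairs at 12 weeks, 43 (87.8%) were higher in both pairs at 1 week, compared to 21.3% of all genes, and 23 (46.9%) were over 1.5-fold in both pairs, compared to 0.271%. Of the 49 lower genes, 42 (85.7%) were lower in both pairs at 1 week, compared to 4994 of all 19938 genes, and 14 (28.6%) over 1.5-fold, compared to 0.150%. Of the 98 genes, 43 higher and 46 lower ones lay above the median level, whereas the shares of all genes cover every level. The 2 sets of pools come from different mice. The median difference of the higher genes was 0.76 at 1 week and 0.93 at 12 weeks, and that of the lower genes −0.63 and −0.89. Nnmt, Gask1a and Slc17a8 had almost the same difference at both times (1.17 and 1.28, −1.63 and −1.64, and −2.18 and −2.22). Rgs16 had −1.13 at 1 week and −2.37 at 12 weeks, and Serpina12 −2.61 and −1.85.

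A direct test of the 12-week against the 1-week difference called 0 of 19938 genes with limma (0%), with 523 (2.62%) at an unadjusted p under 0.05, 291 higher and 232 lower. Without the LF-HP pool of 12 weeks these counts were 873 and 1042, without LF-NP 479 and 395, and without HF-HP 407 and 452. Of the 6 genes with the smallest p in each direction, 9 had opposite signs at the 2 times in every pair, compared to 5.49% of all genes. Choosing genes by the size of this difference favours opposite signs, so the count is no separate result. Acnat2, an acyltransferase of the peroxisome, measured 8.80 and 8.15 in the HP pools of 1 week, against 7.50 and 7.42 in the NP pools, whereas at 12 weeks it measured 7.53 and 7.58 in the HP pools, against 8.17 and 8.02 in the NP pools. Slc1a4, a carrier of neutral amino acids, differed by 1.41 and 1.06 at 1 week and by 0.13 and 0.24 at 12 weeks. Cyp2j9, a P450 that makes fatty acid epoxides, differed by 0.79 and 0.49 at 1 week and by −0.13 and 0.04 at 12 weeks. Cyp21a1, steroid 21-hydroxylase, differed by −0.11 and 0.01 at 1 week and by 0.52 and 0.74 at 12 weeks. Nr0b2 differed by 0.20 and −0.42 at 1 week and by −1.49 and −0.81 at 12 weeks, and the test between the times did not pass.

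**Figure D5:**
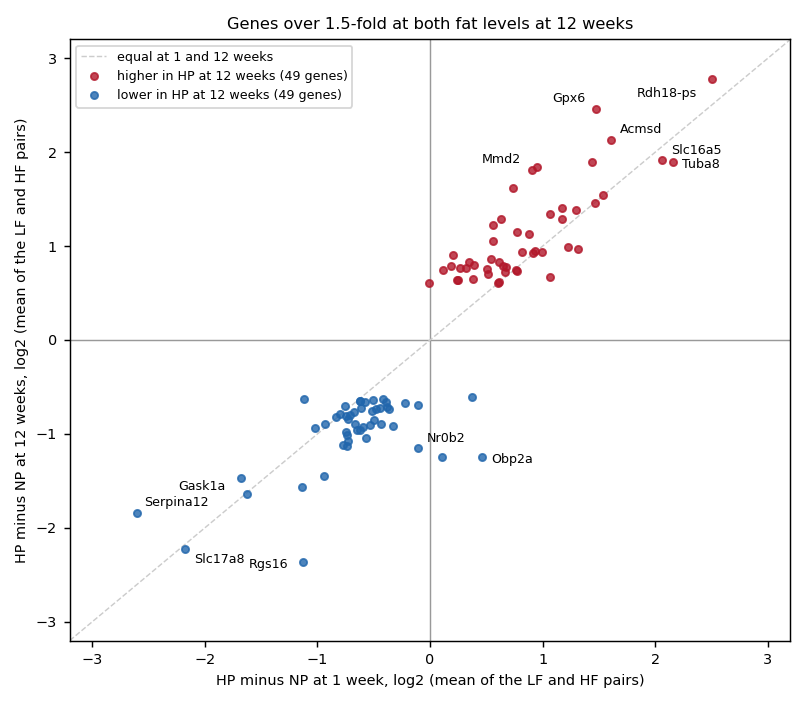
Mean HP minus NP difference at 1 week (horizontal axis, log2) against that at 12 weeks (vertical axis, log2) for the 98 genes over 1.5-fold in both pairs at 12 weeks, with 1 point per gene and a dashed line where both are equal. Most points lie in the quadrants of equal sign, and Obp2a is the lower gene furthest to the right, with −1.25 at 12 weeks.

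No gene passed the test of whether the protein difference was the same at both fat levels. Of 19938 genes limma called 0, with a smallest adjusted p of 0.383 and 2584 at an unadjusted p under 0.05, in a fit that leaves 1 residual degree of freedom. Of the 4 genes with the smallest p, Dmbt1, Tff3 and Gprc5b had 1 pool far from the other 3. Dmbt1, a mucin-like protein of epithelia, measured 3.73 and 3.96 in the HP pools, against 8.93 in LF-NP and 3.73 in HF-NP. Tff3, a trefoil peptide of mucosa, measured 7.09 in LF-HP and 9.05 in HF-HP, against 7.13 in LF-NP and 6.98 in HF-NP, and Gprc5b, an orphan receptor, measured 4.90 in LF-HP and 6.65 in HF-HP, against 4.77 in LF-NP and 4.68 in HF-NP. Igfbp1, the binding protein of insulin-like growth factors that insulin represses, measured 7.77 and 9.08 in the HP pools, against 8.58 and 7.60 in the NP pools, all below the reference of 10.06. When the HF-NP pool was left out, Dmbt1 was the 1 gene that passed the main test (adjusted p = 0.0085), and LF-NP was then the 1 NP pool left at 12 weeks.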

How the data were processed

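The authors deposited log2 values from robust multiarray analysis (RMA), 1 per probe set and array, for 35556 probe sets on 9 arrays, each read from 1 pool of 5 livers. These values were used without further scaling. The study's methods describe probe sets regrouped by Entrez Gene, whereas the deposited rows carry the array's own probe set IDs, so gene values here rest on other groupings of probes than those methods describe. Probe sets were named through the platform annotation, which gave 1 gene for 21789, several for 1621 and none for 12146 (38.7% not named with 1 gene). A gene with several probe sets was represented by the one with the highest mean, which left 19938 genes. limma 3.58.1 (R 4.3.3) fitted the 8 diet pools with terms for week, fat and protein within each week (3 residual degrees of freedom plus a prior of 3.65), so that the 12-week estimate is the mean of the LF and HF differences, and p-values were adjusted by Benjamini-Hochberg over all 19938 genes. The number of arrays limits the precision. Scripts were tested on simulated data. Lists were matched by symbol, and a synonym was used only where the listed name was not itself a current symbol, which left 101 of 1024 entries without a value. The leading genes are the 12 in each direction with the largest smaller-of-the-pair difference, and 6 in each direction (between weeks) or 4 (between fat levels) have the smallest p. Other genes were named from the lists after their values were seen. The comparison and all lists were chosen with earlier results of these data known. Summaries used Python 3.11.15, pandas 2.3.3 and NumPy 2.4.6.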

Additional observations from a re-analysis of the deposited data

Results flagged for a closer look

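Over all 19938 genes, 1094 (5.49%) had one sign of the HP minus NP difference in both matched pairs at 1 week and the opposite sign in both at 12 weeks. Of the genes chosen by rule, as leading genes or by the smallest p, which favours such a turn, 10 were among them. Their 12-week minus 1-week differences were 0.74 for Pdrg1, 0.75 for Olfr589, 0.71 for Cdc26, 0.62 for Sap18 and 0.81 for Tuft1, and −1.71 for Obp2a, −1.55 for Acnat2, −0.71 for Snord57, −0.78 for Fgl1 and −0.64 for Gdpgp1. The limma test of this difference passed for none of them, as for 0 of 19938 genes, with 523 at an unadjusted p under 0.05. Slc10a2, the ileal bile acid carrier, chosen here after its values were seen, also turned, with 0.31 and 0.43 at 1 week and −0.63 and −0.59 at 12 weeks in the LF and HF pairs.

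Fgl1, a protein secreted by hepatocytes, measured 10.14 in LF-HP and 10.25 in HF-HP, against 10.66 in LF-NP and 10.60 in HF-NP at 12 weeks, whereas its 1-week differences were 0.39 and 0.30.

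For 3 genes named for their difference between fat levels, the LF and HF pairs had opposite signs at 12 weeks. Dmbt1 and Tff3 each had 1 pool far from the other 3, and their other pair differed little. The HF minus LF difference was 5.42 for Dmbt1, 2.28 for Igfbp1 and 2.12 for Tff3, with 1 pair at each fat level, and limma called none of them.

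For 2 lists, the medians had one sign in both pairs at 1 week and the other in both at 12 weeks, which was not tested. Purine synthesis and pentose phosphate had a 12-week median of 0.15 (0.03 in the LF and 0.26 in the HF pair) and 1-week medians of −0.06 and −0.0044. The growth hormone, IGF and insulin list had a 12-week median of 0.0096 and 1-week medians of −0.07 and −0.09.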

How the results depend on the processing

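At 12 weeks limma called 27 genes with those above the median level only, 11 with arrays centred on the median, 4 with genes quantile normalised again and 0 to 1 when 1 pool was left out. The test between the weeks called 0 to 1 when 1 pool was left out. All other settings called 0, including the matched pairs as a replicate block (0 genes, smallest adjusted p 0.0579). At 2-fold in both pairs 13 genes were higher and 9 lower, in place of 49 each. Leaving out both pools that stood apart, or normalising again, was chosen after seeing the data. Without both pools the difference was −0.0865 for Slc1a4, 0.21 for Slc38a2, 0.13 for Cpt1a, −0.00103 for Lss and −0.28 for Hmgcs1. Leaving out 1 pool turned the sign of others, with ranges of −0.21 to 0.13 for Alb, −0.37 to 0.19 for Arntl, −0.12 to 0.0169 for Cpt1a, −0.11 to 0.0368 for Cs, −0.12 to 0.0237 for Cyp2j9, −0.0604 to 0.38 for Cyp7a1, −5.10 to 0.12 for Dmbt1, −0.70 to 0.27 for Fasn, −0.22 to 0.39 for Hmgcs1, −0.63 to 1.31 for Igfbp1, −0.0848 to 0.81 for Per1 and −0.46 to 0.42 for Slc38a2. The cause was not tested. Without both pools the list median was 0.24 for methionine, cysteine and taurine, 0.19 for complex I, −0.15 for lipogenesis, −0.12 for serpins, 0.09 for purine synthesis and pentose phosphate, 0.02 for ATF4 targets and 0.0038 for fatty acid oxidation, each more than 1.5 times away from its value with all pools. The same held for CAR and PXR targets (−0.0071), NRF2 targets (−0.08), lipid droplets (0.06) and desaturation and elongation (−0.10). It also held for immediate early genes (−0.15), the circadian clock (−0.008), and the transporter, periportal and interferon lists given above. Of the 44 list medians 40 kept their sign without both pools and 44 when normalised again. Cholesterol synthesis (−0.03), heat shock proteins (0.15), cell cycle (−0.02) and collagen and matrix (−0.02) changed sign without both pools. The comparison rests on 4 arrays.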

Other observations

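Purine synthesis and the pentose phosphate pathway had 11 of 25 genes with both HP pools above both NP pools at 12 weeks and 2 below. Over all genes the shares were 13.5% and 14.5%. Ppat, the amidotransferase that commits ribose phosphate to purines, measured 7.85 in LF-HP and 8.47 in HF-HP, against 7.24 in LF-NP and 6.78 in HF-NP (1.15 ± 0.22, limma adjusted p = 0.286). HF-HP was the highest and HF-NP the lowest pool.

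Plasma protein genes leaned the other way. Of 38 complement and coagulation genes 17 were below and 4 above without overlap (median −0.10), beside 14.5% and 13.5% of all genes. Of 19 serpins, the family of secreted protease inhibitors, 8 were below and 0 above (median −0.07).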
